A study of Homo sapiens with 6 samples.

Results

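R-loop regions of chromosome 19 that lie outside its zinc finger genes are described here. Peaks from all 6 samples were merged where they touched or overlapped. A merged region was taken when it lay on chromosome 19, was present in 3 or more samples and did not overlap the span plus 2 kb of any protein-coding gene whose symbol is ZNF followed by digits. This gave 2412 of 75758 merged regions in the series, and of 34843 present in 3 or more samples. On chromosome 19 itself, 5508 regions were merged, 2887 were present in 3 or more samples, and the remaining 475 of those lay at one of 250 ZNF genes.

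The study mapped R-loops in SH-SY5Y, an established human neuroblastoma line, by DRIP-seq in a series on stable loss of TDP-43. All cells carried a lentiviral short hairpin RNA, shT2 (3 samples) or shNC3 (3 samples), driven by a U6 promoter and selected with puromycin. No label states the target of either hairpin. From the names, shT2 is taken here for the TDP-43 knockdown and shNC3 for its control, and peak lists give no RNA level that could check the knockdown or the cell type. As far as the labels say, each hairpin is 1 sequence in 1 selected population and replicates need not be separate cultures, so p-values cover the spread of these samples alone, part of which may be technical. Differences are given as shT2 relative to shNC3.

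An R-loop is an RNA paired with 1 strand of the DNA duplex, with the other strand left unpaired. It forms behind RNA polymerase, above all where the new RNA is rich in G, at promoters with CpG islands and near the ends of genes, and it is removed by RNase H enzymes, topoisomerases and helicases. The S9.6 antibody recognises the hybrid, and DRIP-seq sequences the DNA pulled down with it. Chromosome 19 is the human chromosome richest in genes, and holds long tandem clusters of zinc finger repressor genes between densely packed housekeeping, neuronal and signalling genes.

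The measure was covered length, the number of bases of a region or gene that lie under peaks in a sample. Unless called unscaled, each sample's values were multiplied so that its total matched the average of the 6 totals, and were fitted as log2(scaled bp + 200) for regions and log2(scaled bp + 500) for genes. A region or gene is said to be longer or shorter in shT2, or to have risen or fallen, where limma's adjusted p was under 0.05. Covered length is a measure of extent under a peak threshold, not of signal strength. The lists held 49068, 50971 and 50821 peaks in shT2 replicates 1 to 3 and 45390, 42717 and 45014 in shNC3 replicates 1 to 3. Depth recovered from the deposited fold and p of each peak lay between 3.08 and 3.46 fragments per base in shT2 and between 1.65 and 1.79 in shNC3, and total covered length was 74.8 ± 2.96 Mb and 67.1 ± 3.89 Mb (SD, n = 3 each).

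Nucleic acids were cut with BsrGI (TGTACA), EcoRI (GAATTC), HindIII (AAGCTT), SspI (AATATT) and XbaI (TCTAGA) before the pulldown, and sequence windows are shown first because many peak edges lay on those sites. The windows below surround a cut site, in capitals, at which a peak of the named gene's region began or ended. They are read along the gene's strand from RefSeq's GRCh38.p14 promoter table (hg38 positions). The FOSB and EEF2 edges lay there in all 6 samples, the EHD2 edge in the 3 shNC3 samples alone and the CCDC124 edge in the 3 shT2 samples alone.
FOSB, XbaI, chr19:45467824-45467883, plus strand: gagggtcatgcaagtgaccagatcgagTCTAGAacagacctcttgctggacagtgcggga
EEF2, XbaI, chr19:3985587-3985646, minus strand: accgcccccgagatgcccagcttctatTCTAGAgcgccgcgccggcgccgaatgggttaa
EHD2, EcoRI, chr19:47713220-47713279, plus strand: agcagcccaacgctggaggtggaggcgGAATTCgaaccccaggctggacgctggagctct
CCDC124, XbaI, chr19:17932765-17932816, plus strand: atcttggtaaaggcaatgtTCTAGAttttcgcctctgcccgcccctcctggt

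Where a 300-base promoter window held exactly 1 cut site, 169 of 179 peak edges of the chromosome 19 regions in it lay within 10 bp of that site (94.4%), although a span of 21 bases is 7.0% of the window. The share was 93.7% in shT2 and 95.2% in shNC3, and 93.8% over the peaks of all chromosomes (2788 of 2972). For each enzyme it lay between 91.0% for SspI and 95.6% for EcoRI. Of the chromosome 19 promoter windows with 1 site, 30.2% held a peak edge, against 25.6% of those with none. Over the windows of all chromosomes the order was reversed, 16.6% with 1 site and 20.1% with none. So an edge that fell in a window with 1 site was nearly always at it, while windows without a site held edges too. Of the 2708 edges of the 1354 regions present in all 6 samples, 876 (32.3%) stayed within 10 bp in every sample, against 35.1% in the other regions of the series.

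Promoters are shown for 4 genes whose regions changed and for RPL13A, a locus often used to test DRIP. These are the 250 bases before the RefSeq start in GRCh38.p14, 5′ to 3′ along the gene, with runs of GGGG or longer in capitals. GADD45B and RNF126 lay under regions shorter in shT2, TUBB4A and SMIM47 under regions longer in shT2, and RPL13A under a region that was not called. The GADD45B and TUBB4A regions had peaks under 1 hairpin alone, and the TUBB4A call did not hold at equal depth.
GADD45B promoter, chr19:2475877-2476126, plus strand: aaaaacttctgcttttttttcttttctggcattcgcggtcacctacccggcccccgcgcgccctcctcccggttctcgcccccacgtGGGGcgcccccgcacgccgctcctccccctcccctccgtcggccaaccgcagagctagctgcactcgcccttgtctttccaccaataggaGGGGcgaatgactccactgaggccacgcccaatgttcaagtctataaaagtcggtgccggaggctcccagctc
RNF126 promoter, chr19:663215-663464, minus strand: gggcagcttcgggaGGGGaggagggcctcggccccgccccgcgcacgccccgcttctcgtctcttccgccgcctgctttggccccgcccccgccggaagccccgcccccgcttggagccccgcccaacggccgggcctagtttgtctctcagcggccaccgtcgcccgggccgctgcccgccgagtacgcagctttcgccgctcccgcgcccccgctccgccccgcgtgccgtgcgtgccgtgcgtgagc
TUBB4A promoter, chr19:6502849-6503098, minus strand: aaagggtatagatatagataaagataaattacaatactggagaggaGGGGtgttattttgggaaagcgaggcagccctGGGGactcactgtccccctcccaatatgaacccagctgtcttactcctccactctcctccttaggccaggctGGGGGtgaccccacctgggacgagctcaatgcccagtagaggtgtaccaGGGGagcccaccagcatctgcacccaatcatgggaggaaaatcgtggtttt
SMIM47 promoter, chr19:50786161-50786410, minus strand: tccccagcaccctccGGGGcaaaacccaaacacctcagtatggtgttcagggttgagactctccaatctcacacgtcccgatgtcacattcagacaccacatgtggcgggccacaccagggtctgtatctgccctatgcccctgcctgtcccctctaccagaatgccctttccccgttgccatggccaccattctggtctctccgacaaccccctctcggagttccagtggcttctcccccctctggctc
RPL13A promoter, chr19:49487358-49487607, plus strand: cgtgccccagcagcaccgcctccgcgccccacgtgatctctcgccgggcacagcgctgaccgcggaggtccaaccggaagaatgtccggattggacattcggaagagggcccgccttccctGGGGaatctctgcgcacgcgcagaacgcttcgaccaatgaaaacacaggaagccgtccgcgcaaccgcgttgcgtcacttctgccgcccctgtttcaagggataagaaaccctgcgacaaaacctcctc

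GC content was 78.8% for RNF126, 63.2% for GADD45B and RPL13A, 59.6% for SMIM47 and 52.8% for TUBB4A. Of 966 promoters of chromosome 19 genes not named ZNF, 156 lay under a region that fell, with a median GC content of 68.4%. The 13 under a region that rose had a median of 60.0%, the 240 under a region that was not called 64.8%, and the 557 under no region 61.6%. Over all 15843 promoters of the series the medians were 68.8% for the 1491 under regions that fell, 61.6% for the 402 under regions that rose and 59.6% for those under no region. GGGG occurred in 83.1% of the chromosome 19 promoters and in 76.6% of all promoters, and CCCC, the same run on the other strand, in 84.0% and 76.8%. At least 1 cut site occurred in 11.9% and 15.8%. These are descriptions of letters, with no test.

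The regions were present in 1968, 2053 and 1973 of 2412 cases in shT2 replicates 1 to 3, and in 2089, 1975 and 2048 in shNC3 replicates 1 to 3, so the groups overlapped. Widths ran from 291 to 59468 bp with a median of 2400 bp, against 1661 bp in the other regions of the series. In total 1354 (56.1%) were present in all 6 samples, against 43.8% of the other regions. The rule admits a region at 3 samples: the 494 regions with just 3 had a median width of 863 bp, and the 676 left out with 2 had a median of 570 bp. Of those 494, 114 were present in the 3 shT2 samples alone and 161 in the 3 shNC3 samples alone. These passed the presence rule through 1 hairpin and all were called, so their calls are not counted as support for any difference. They made up 4.73% and 6.67% of the chromosome 19 regions, and 13.4% and 6.19% of the other regions.

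The regions outside zinc finger genes took a smaller share of the covered genome in shT2. They held 10.8%, 10.6% and 10.8% of the total covered length in shT2 replicates 1 to 3 and 11.9%, 12.4% and 12.1% in shNC3 replicates 1 to 3. Every shT2 value was below every shNC3 value, with means of 10.7 ± 0.133% and 12.1 ± 0.234% (SD, n = 3 each), a difference of -1.39 percentage points (exact two-sided permutation test, p = 0.1, the smallest that 3 against 3 allows). At equal depth, the difference was -1.15 percentage points and the groups stayed apart. The zinc finger regions of the same chromosome went the other way: their share was 1.15%, 1.13% and 1.13% in shT2 and 1.01% in each shNC3 sample. The ratio of covered length outside to that at zinc finger genes was 9.38, 9.40 and 9.54 in shT2 and 11.7, 12.3 and 12.0 in shNC3. Its means were 9.44 ± 0.0862 and 12.0 ± 0.262 (exact two-sided permutation test, p = 0.1, groups apart), and this ratio needs no scaling.

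Unscaled, the regions outside zinc finger genes were covered over 7.95, 8.27 and 7.86 Mb in shT2 and 8.39, 7.78 and 8.22 Mb in shNC3, which overlap (8.02 ± 0.217 and 8.13 ± 0.318 Mb, exact permutation p = 0.8). Their smaller share thus went with a larger total in shT2, while their own unscaled length did not separate the hairpins. Unscaled length at the zinc finger regions was 850.0 ± 28.0 kb in shT2 and 679.0 ± 41.0 kb in shNC3, with groups apart (exact permutation p = 0.1). The median fold enrichment of peaks in the regions outside zinc finger genes, as a percentile within each list, lay between 63.2 and 66.4 in shT2 and between 64.5 and 65.6 in shNC3.

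**Figure D1:**
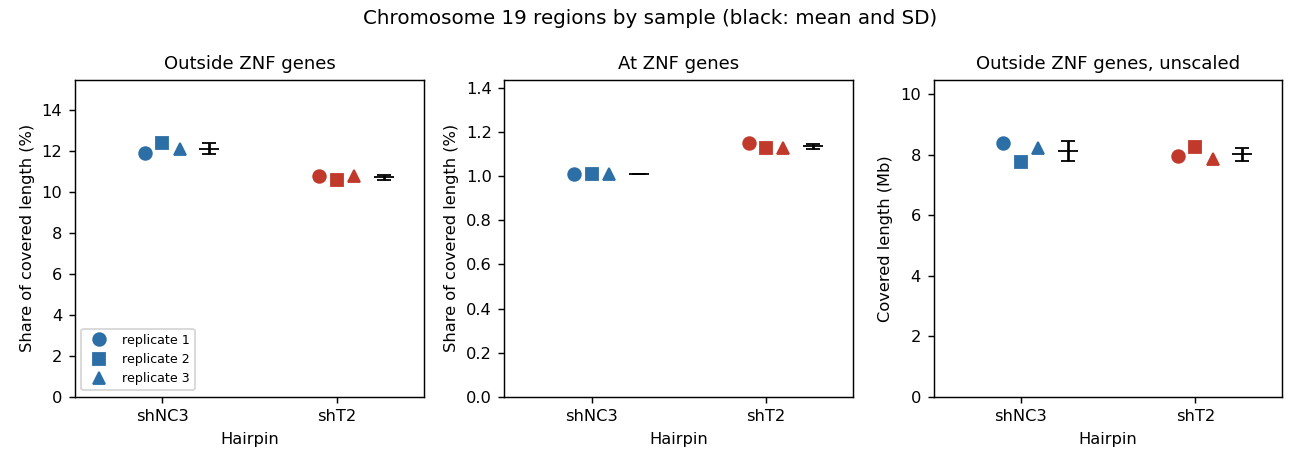
Each point is 1 sample, with the hairpin on the x axis and the black mark showing mean and SD (n = 3). The left and middle plots give the share of total covered length (%) in chromosome 19 regions outside and at ZNF genes, and the right plot the unscaled covered length (Mb) outside them. The share outside ZNF genes is 10.6 to 10.8% in shT2 and 11.9 to 12.4% in shNC3, while the unscaled lengths overlap.

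Region by region, 258 of 2412 rose (10.7%), 573 fell (23.8%) and 1581 did not pass. Over all 34843 regions tested, 37.5% were called, 21.3% longer and 16.2% shorter. The median log2 difference was -0.15, against 0.03. These counts include regions with peaks under 1 hairpin alone, which are called through the presence rule itself. Samples of the hairpins did not overlap in 1314 regions (54.5%), close to 54.6% of all regions. Among the 2137 with a peak in at least 1 sample of each hairpin, 144 rose and 412 fell, so that 74.1% of calls were shorter. Over all 28226 such regions 2982 rose and 3474 fell, or 53.8% shorter. With both hairpins required, chromosome 19 outside zinc finger genes and the genome thus pointed the same way, and the share of shorter calls was higher on chromosome 19 (medians -0.15 and -0.05). Zinc finger regions of the chromosome gave 117 longer and 57 shorter of 475, with a median of 0.33, and 64 longer and 37 shorter of the 402 with a peak in both hairpins.

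Direction depended in part on the scaling. Without it, 312 regions rose and 374 fell, the latter all among the 573, with a median of -0.01. All regions then gave 23.0% longer and 12.0% shorter and a median of 0.16. With a peak in both hairpins, 198 rose and 213 fell without scaling (51.8% of calls shorter, median 0.00), against 36.2% of calls shorter and a median of 0.09 for all regions. The share of shorter calls was thus still above that of the genome, and an absolute loss did not appear in the median of the regions. At equal depth, 216 rose and 478 fell.

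The regions outside zinc finger genes had the lowest share of longer calls, 10.7%, and the highest share of shorter ones, 23.8%, of the groups compared: each other chromosome and the zinc finger regions. Other gene-rich chromosomes had 18.0% longer and 15.7% shorter on chromosome 16, 20.5% and 16.2% on chromosome 17, and 17.8% and 15.2% on chromosome 22. On chromosome 11, the nearest in balance, 18.4% were longer and 18.9% shorter. With a peak in both hairpins, 6.74% rose and 19.3% fell outside zinc finger genes, against 8.81% and 14.2% on chromosome 11 and 9.03% and 12.3% on chromosome 16.

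**Figure D2:**
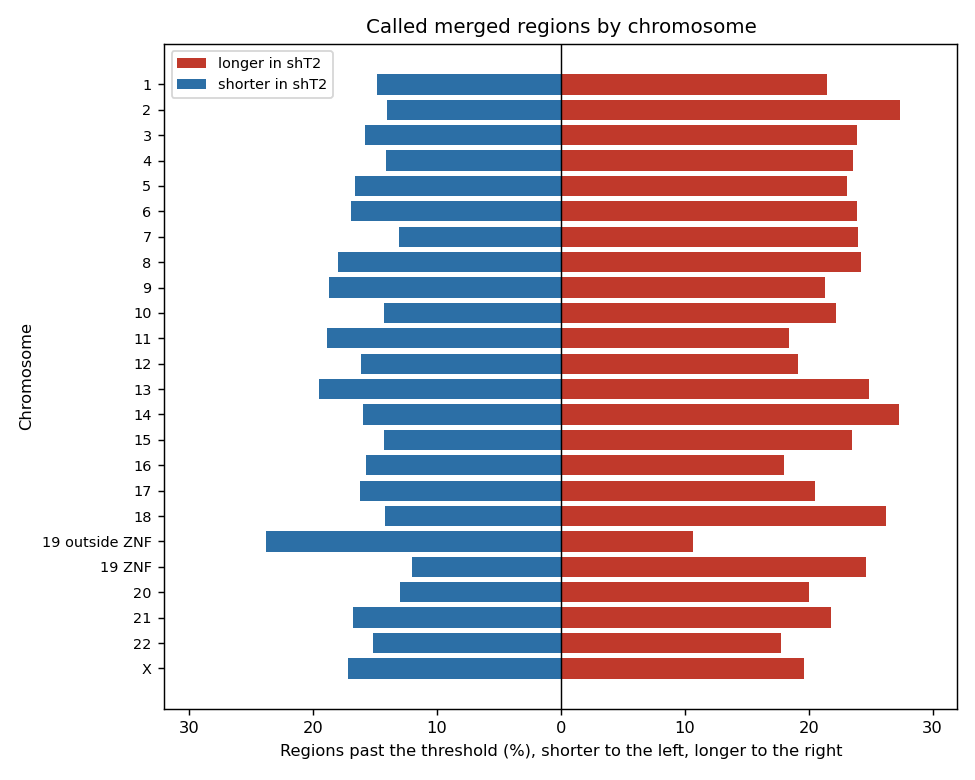
Bars give the share of tested merged regions (%) with covered length longer in shT2 (to the right) or shorter (to the left), by chromosome, with chromosome 19 split at its ZNF genes. Outside ZNF genes, 10.7% are longer and 23.8% shorter, while at ZNF genes 24.6% are longer and 12.0% shorter.

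Both arms gave like counts. On the short arm 138 of 1289 regions rose and 290 fell, and on the long arm 120 of 1123 rose and 283 fell. Of 47 windows of 1 Mb with at least 10 regions, 39 had less scaled covered length in shT2, 33 of them with no overlap between the hairpins. A further 4 had more with no overlap. Scaling alone gave a median log2 difference of -0.15 in the 52 regions with the same unscaled length in all 6 samples. Windows were not counted without scaling or on other chromosomes. The window from 14 to 15 Mb held 44 regions, of which 0 rose and 17 fell, and was covered over 123.0, 123.0 and 127.0 kb in shT2 and 166.0, 169.0 and 168.0 kb in shNC3. From 49 to 50 Mb, 0 of 77 rose and 27 fell, and from 0 to 1 Mb, next to the telomere of the short arm, 1 of 70 rose and 30 fell. The window from 8 to 9 Mb went the other way, with 13 of 45 longer and 4 shorter. From 32 to 33 Mb, 7 of 23 were longer and 2 shorter. These counts include regions with peaks under 1 hairpin alone. With a peak in both hairpins, 0 of 37 rose and 10 fell from 14 to 15 Mb. From 49 to 50 Mb it was 0 of 67 and 17, and from 0 to 1 Mb 1 of 65 and 25. From 8 to 9 Mb 12 of 43 rose and 3 fell. From 32 to 33 Mb just 2 of 17 rose and 1 fell (median -0.05).

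By place, regions that hold both a gene start and a gene end fell most often, here and elsewhere. Regions away from genes rose more often than they fell, here and elsewhere. Of 157 regions that hold both the start and the end of protein-coding genes, 2 rose and 63 fell (40.1%). Of 211 that hold a start alone, 14 rose and 68 fell, and of 207 that hold an end alone, 16 rose and 67 fell. Starts and ends here are those of protein-coding genes of the RefSeq table. Of 1542 within a gene body, the largest class, 164 rose and 340 fell (22.0%). Of 109 within 2 kb of a gene, 18 rose and 17 fell, and of 186 farther away, 44 rose (23.7%) and 18 fell. In the rest of the series, 27.8% of 3210 regions away from genes rose and 16.7% fell. Of those away from genes with a peak in both hairpins, 18 of 150 rose and 8 fell here, and 274 of 2235 rose and 179 fell elsewhere. In gene bodies of the rest of the series, 24.1% of 21024 regions rose and 13.2% fell. With a peak in both hairpins, 89 of 1346 body regions rose and 219 fell here, and 1867 of 16523 rose and 1476 fell elsewhere. At combined starts and ends the share of shorter regions was 40.1% here and 39.9% elsewhere. Elsewhere, 8.79% of regions with a start alone rose and 23.9% fell. Of those with an end alone, 22.5% rose and 17.3% fell elsewhere, or 269 and 290 of 1659 with a peak in both hairpins. Place went with width: the median here was 13580 bp at combined starts and ends and 1953 bp in bodies. Places were not counted without scaling.

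By width, regions over 10 kb fell most often under scaling, on chromosome 19 and elsewhere alike: 7 of 258 rose and 115 fell (44.6%), against 5.96% and 43.2% of 1024 wide regions elsewhere. Without scaling these 258 gave 29 longer and 50 shorter. Of regions of 1 to 2 kb, 63 of 543 rose (11.6%) and 128 fell (23.6%), against 26.2% and 13.0% elsewhere. Without scaling, 62 rose and 108 fell. With a peak in both hairpins, 28 of 437 rose and 57 fell here, and 647 of 6485 rose and 445 fell elsewhere. A region already wholly under peaks has no length to gain, so scaling alone moves it. In 121 regions, peaks covered at least 95% of the region in every sample: 15 fell under scaling and 2 without it.

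**Figure D3:**
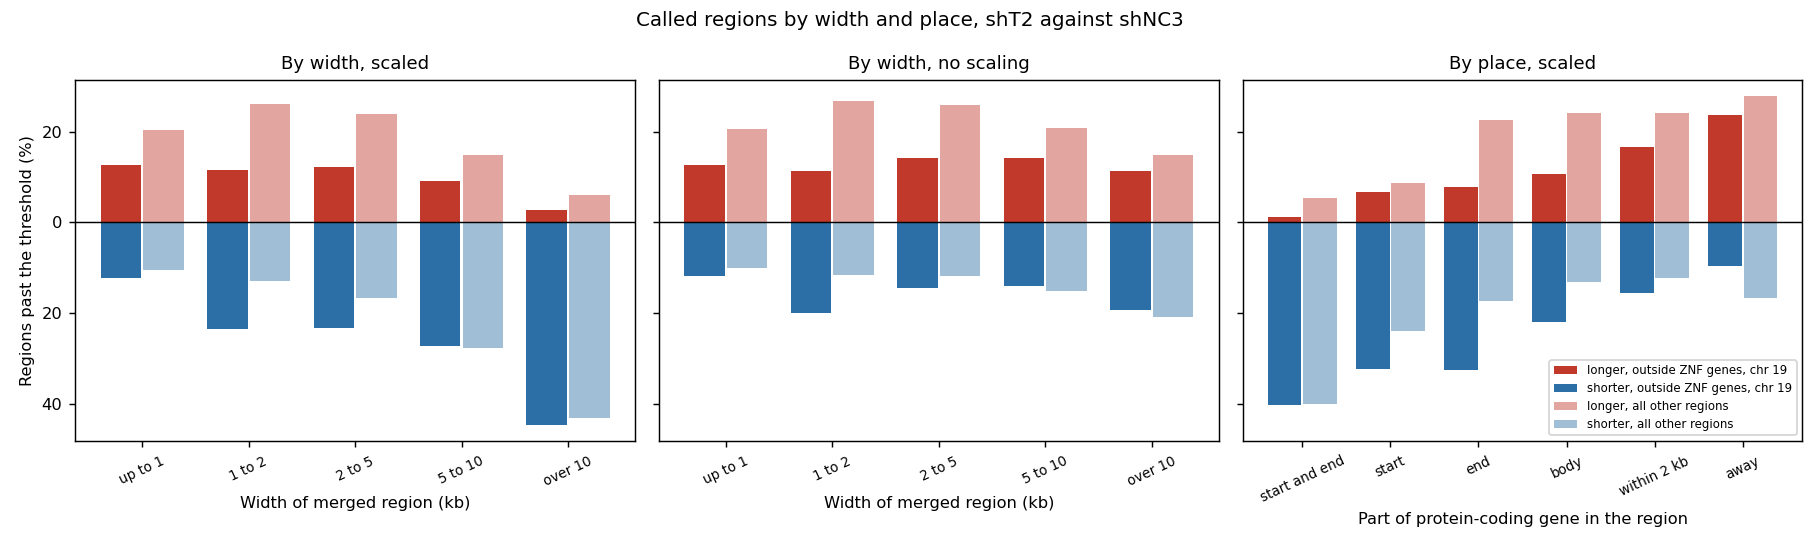
Bars give the share of regions (%) longer in shT2 (up) or shorter (down), dark for chromosome 19 outside ZNF genes and pale for all other regions, by width in kb with and without scaling and by place relative to protein-coding genes. Among regions of 1 to 2 kb, 23.6% of the dark bars' regions fell under scaling against 13.0% of the pale, and over 10 kb 44.6% and 43.2%.

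The widest regions are gene-dense stretches that both hairpins covered almost whole. The widest, 59468 bp over MBD3 (a methyl-CpG-binding domain protein of the NuRD complex), UQCR11 (a subunit of respiratory complex III) and TCF3 (an E-protein transcription factor), lay at chr19:1568395-1627862. Unscaled it was covered over 56739, 58855 and 56665 bp in shT2 and 57519, 56678 and 56560 bp in shNC3, which overlap. Scaled, it was called shorter (log2 difference -0.14, SE 0.041, limma adjusted p = 0.0397), and the sign turned without scaling (0.01, adjusted p = 0.625). Its call was also lost at equal depth (adjusted p = 0.141), without shT2 replicate 1 (0.109), 2 (0.135) or 3 (0.0922) and without shNC3 replicate 3 (0.0715). The region over DOT1L, the H3K79 methyltransferase gene, with PLEKHJ1 and SF3A2 was covered over 46.2 ± 1.5 kb and 50.7 ± 2.6 kb and was not called (limma adjusted p = 0.062). The region at HDGFL2 and PLIN4 was level, with 37.5 ± 1.4 kb and 37.2 ± 2.6 kb (log2 difference 0.01, limma adjusted p = 0.866).

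Of the other wide regions, that over ATP5F1D (ATP synthase), MIDN, CIRBP (a cold-inducible RNA-binding protein) and FAM174C fell also in unscaled length. It was covered over 36833, 38384 and 35677 bp in shT2 and 41200, 40727 and 41114 bp in shNC3 (scaled log2 difference -0.31, SE 0.04, limma adjusted p = 0.00265). The region over FZR1, an activator of the anaphase-promoting complex, with MFSD12 and TEKTIP1 fell by 0.24 on the log2 scale (limma adjusted p = 0.00053), and lost its call without scaling (-0.09, adjusted p = 0.203).

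Regions were named among those called, with a peak in both hairpins and with no overlap between the hairpins. The 8 with the largest fall lay at RELB (2 regions), WTIP, RNASEH2A, ADAMTSL5, RNF126, ACTN4 and IL27RA with PALM3. At RELB, an NF-kappa-B subunit gene, the region chr19:45031714-45038088 was covered over 0.31, 0.294 and 0 kb in shT2 replicates 1 to 3 and 6.05, 7.20 and 6.14 kb in shNC3 replicates 1 to 3. The log2 difference was -4.17 (SE 0.40, limma adjusted p = 0.00119), and a second RELB region in the gene body fell by 4.09 (adjusted p = 0.00183). In each the highest shT2 value was far below the lowest shNC3 value. RNASEH2A encodes the catalytic subunit of RNase H2, an enzyme that cuts RNA in hybrids. Its gene body region chr19:12807088-12811025 was covered over 0, 0.273 and 0 kb in shT2 and 3.88, 4.00 and 4.11 kb in shNC3 (-3.98, SE 0.39, limma adjusted p = 0.00127).

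RNF126 is the E3 ubiquitin ligase gene whose promoter is printed above. Its region chr19:661947-668822 was covered over 0, 0.638 and 0.305 kb in shT2 and 5.30, 5.35 and 5.65 kb in shNC3 (log2 difference -3.68, limma adjusted p = 0.00349). WTIP, which encodes an adaptor protein with LIM domains, had 0.125 ± 0.22 kb and 4.32 ± 0.054 kb (-3.99, limma adjusted p = 0.00199). ADAMTSL5, a gene of a secreted matrix protein, had 0.118 ± 0.20 kb and 3.82 ± 0.24 kb (-3.84, limma adjusted p = 0.00209). In all 3, as the choice of regions required, every shT2 value lay below every shNC3 value.

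A region of ACTN4, the actin cross-linker actinin-4, was covered over 0.919, 0 and 0 kb in shT2 and 3.45, 4.44 and 4.10 kb in shNC3 (log2 difference -3.56, limma adjusted p = 0.0123). Its adjusted p was 0.0505 without shT2 replicate 2. The region at the end of IL27RA, a cytokine receptor gene, and PALM3 had 0.336 ± 0.37 and 4.89 ± 0.67 kb (-3.50, limma adjusted p = 0.00528). When peaks below 5-fold enrichment were left out, neither was called (adjusted p = 0.0586 and 0.107).

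The widest regions present in every shNC3 sample and in no shT2 sample were chosen by that pattern, so they are described with no test. GADD45B, a stress and NF-kappa-B response gene, was covered from before its start to past its end over 6741, 6186 and 6186 bp unscaled in shNC3. BCL3, which encodes a nuclear partner of NF-kappa-B, was covered at its end over 4386, 3804 and 5249 bp. CNN2 encodes calponin 2, an actin-binding protein, and had 4492, 4035 and 3953 bp in its body. EHD2, a gene of membrane caveolae, had 4111, 4026 and 3980 bp from its start, all beginning at the EcoRI site printed above. NECTIN2, a cell adhesion gene, had 4485, 3710 and 3719 bp in its body. Each of these 5 had 0 bp in all 3 shT2 samples, whose libraries were the deeper ones.

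Rises were named by the rule used for falls, which required a peak in both hairpins and no overlap between them. The 8 with the largest rise lay at EPS15L1, SMIM47, ARHGEF18 and ATCAY, and near TMPRSS9, TUBB4A and URI1 (2 regions). At EPS15L1, an endocytic adaptor gene, the region chr19:16442642-16446545 was covered over 2.70, 3.23 and 3.49 kb in shT2 and 0, 0.334 and 0 kb in shNC3 (log2 difference 3.58, SE 0.44, limma adjusted p = 0.00241). Away from URI1, a prefoldin-like gene, the region chr19:30048065-30053914 had 5.32, 4.80 and 5.71 kb in shT2 and 0.773, 0.401 and 0 kb in shNC3 (3.48, SE 0.59, limma adjusted p = 0.00618). A neighbouring region there rose by 3.29 (adjusted p = 0.00634), and in each of these, as the choice required, every shT2 value was above every shNC3 value. SMIM47, a gene of a small membrane protein, was covered over its start and end for 2.94 ± 0.57 kb in shT2 and 0.138 ± 0.24 kb in shNC3 (3.42, limma adjusted p = 0.00394).

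ATCAY, the gene of caytaxin, a neuronal protein altered in Cayman ataxia, had 3.35, 2.08 and 1.75 kb in its body in shT2 and 0.347, 0 and 0 kb in shNC3 (log2 difference 3.16, limma adjusted p = 0.00495). ARHGEF18, a guanine nucleotide exchange factor gene, had 2.76 ± 0.37 and 0.112 ± 0.19 kb (3.40, limma adjusted p = 0.00275). A region within 2 kb of the protease gene TMPRSS9 had 3.40 ± 0.88 and 0.178 ± 0.31 kb (3.52, limma adjusted p = 0.00583). A region near TUBB4A had 2.32 ± 0.39 and 0.108 ± 0.19 kb (3.18, limma adjusted p = 0.00335). When peaks below 5-fold enrichment were left out, EPS15L1 (adjusted p = 0.303), SMIM47 (0.303), ARHGEF18 (0.552) and the TMPRSS9 region (0.552) lost their calls.

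Those present in every shT2 and no shNC3 sample are again given without a test. The region over the start of TUBB4A, the gene of a brain beta-tubulin, was covered over 3367, 2909 and 757 bp in shT2. Most of that region, chr19:6502024-6506182, lies before the start of this minus-strand gene. SHANK1, a postsynaptic scaffold gene, had 2070, 3361 and 2041 bp in its body, and INSR, the insulin receptor gene, 4266, 3990 and 2904 bp. A region away from MYADM had 3802, 3802 and 4008 bp, and one away from ZNF724 2782, 2937 and 3185 bp. All 5 had 0 bp in the 3 shNC3 samples, whose libraries were the shallower ones. At equal depth the call of the TUBB4A region was lost (limma adjusted p = 0.149). Without peaks below 5-fold enrichment, the regions at INSR, SHANK1 and TUBB4A and that away from ZNF724 lost theirs. What part depth had in these zeros was not tested.

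**Figure D4:**
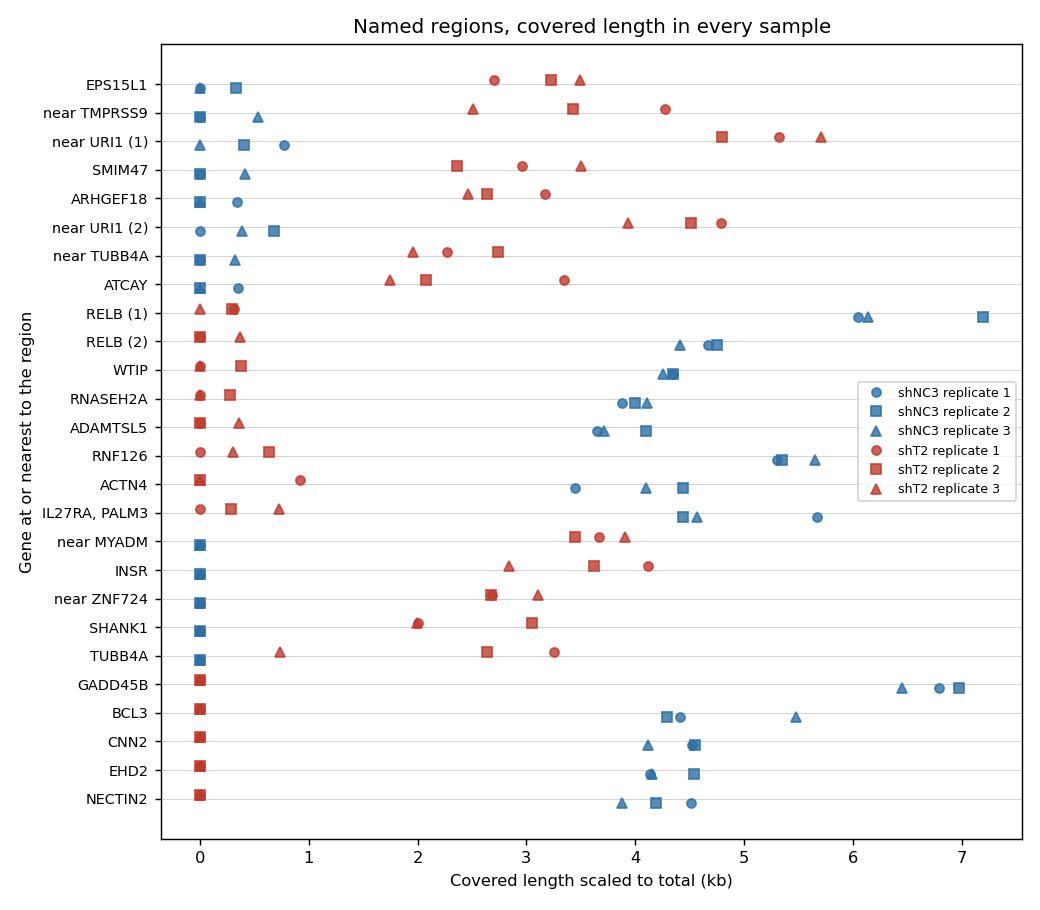
Each point is the scaled covered length (kb) of a named region in 1 sample, with the gene at or nearest to it on the y axis, colour for hairpin and shape for replicate. Regions were chosen so that the hairpins do not overlap. From GADD45B to NECTIN2 all shT2 points are at 0, and from MYADM to TUBB4A all shNC3 points are at 0.

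Some shorter regions stood side by side. Runs of consecutive regions with the same call were listed where they held at least 4, counting all chromosome 19 regions outside zinc finger genes in order. The longest held 15 regions over ACTN4 and CAPN12, a calpain protease gene, in 88.7 kb: summed, they were covered over 27.9, 25.3 and 28.5 kb in shT2 and 56.6, 57.1 and 58.3 kb in shNC3. A run of 10 lay over TICAM1 (the TRIF adaptor of Toll-like receptors) and PLIN3 (a lipid droplet protein), with 10.3 ± 0.694 and 22.7 ± 1.98 kb. A run of 9 over LMNB2 (lamin B2), GADD45B and GNG7 had 4.90 ± 0.524 and 20.8 ± 0.325 kb. Another 9 over CLPTM1, RELB and CLASRP had 14.1 ± 0.774 and 38.7 ± 0.618 kb. Runs were picked by their calls, so these sums are descriptions.

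Further runs of 8 shorter regions lay over HAUS8 and MYO9B (12.6 ± 0.255 and 30.0 ± 0.495 kb), from LSM4 to the stress cytokine gene GDF15 (17.6 ± 1.02 and 33.7 ± 0.85 kb), and from SSC5D to EPN1 (25.5 ± 1.18 and 39.8 ± 1.60 kb). Runs of 7 lay at TGFB1, the TGF-beta 1 gene, with CCDC97 and B9D2 (13.4 ± 0.585 and 25.0 ± 0.931 kb), and at CALM3 with PTGIR and GNG8 (13.6 ± 1.18 and 24.6 ± 0.533 kb). At BCL3 and NECTIN2, 6 regions in a row were uncovered in shT2 and summed to 13.9 ± 2.72 kb in shNC3. Longer regions were fewer (258 against 573 shorter) and formed fewer runs. How many runs such counts alone would give was not computed. The longest, of 8, spanned 4510.0 kb across the centromere, from near ZNF724 to near UQCRFS1, with 12.0 ± 1.03 kb in shT2 and 0.623 ± 0.307 kb in shNC3. A run of 5 covered CERS4, a ceramide synthase gene, over 15.2, 14.1 and 13.0 kb in shT2 and 7.96, 7.13 and 7.82 kb in shNC3. INSR and URI1 each held a run of 4.

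The same lean was seen when covered length was counted per gene (span plus 2 kb on each side, so neighbours can share peaks). Of 1201 chromosome 19 protein-coding genes not named ZNF, 845 passed the filter of coverage in 3 samples, and 328 had no peak in any sample. Of the 845, 68 rose (8.05%), 362 fell (42.8%) and 415 did not pass, with a median log2 difference of -0.17. Over all 11771 genes tested, 51.3% were called, 24.2% longer and 27.2% shorter, with a median of -0.08, and the hairpins did not overlap in 65.0%. The chromosome 19 ZNF genes gave 49 longer and 45 shorter of 189, with a median of 0.13. Shorter genes made up 84.2% of calls outside zinc finger genes and 67.1% without scaling (96 longer, 196 shorter). The gene lists below were drawn up with earlier results of these data known. Their counts stand beside the 8.05% longer and 42.8% shorter of the 845 genes.

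Of 20 NF-kappa-B, AP-1 and stress genes tested, 0 rose, 12 fell and 8 did not pass (9 shorter and 1 longer without scaling). The 12 include 3 with a peak in shNC3 alone, which passed the filter through that hairpin. The median was -0.38 over the 20 and -0.26 among the 17 peaked under both hairpins. The same medians were -0.17 and -0.17 for the 845 chromosome 19 genes, and -0.08 and -0.07 over all genes. RELB was covered over 321, 324 and 376 bp unscaled in shT2 and 21698, 18819 and 21916 bp in shNC3 (scaled log2 difference -4.77, SE 0.097, limma adjusted p = 8.85e-07). BCL3, GADD45B and KLF2, a transcription factor gene of quiescence and inflammation, had no peak in shT2. In shNC3, BCL3 had 6.88 ± 1.7 kb, GADD45B 6.38 ± 0.31 kb and KLF2 3.09 ± 0.52 kb. The region at FOSB, an AP-1 gene whose cut site is printed above, was covered over 6433 bp unscaled in each shT2 sample and 5813, 5757 and 5757 bp in shNC3, and did not pass on the scaled measure (limma adjusted p = 0.988).

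TGF-beta, adhesion and matrix genes had the largest share of shorter members of the lists counted: of 22 tested, 1 rose, 16 fell and 5 did not pass (median -0.40, or -0.34 among the 21 peaked under both hairpins), and without scaling 3 rose and 11 fell. ACTN4 was covered over 25.8, 23.3 and 27.1 kb in shT2 and 55.6, 55.7 and 56.4 kb in shNC3 (log2 difference -1.13, SE 0.056, limma adjusted p = 1.82e-05). NECTIN2 kept 613 bp in every shT2 sample against 12518, 8416 and 15346 bp in shNC3, unscaled (scaled log2 difference -3.58, limma adjusted p = 2.03e-05). MYO9B, an unconventional myosin gene, fell by 0.77 (adjusted p = 4.16e-05). NOTCH3, a Notch receptor gene of mural cells, fell by 0.90 (adjusted p = 0.000106). S1PR2, a sphingosine phosphate receptor gene, was the 1 that rose, named after its value was seen (7.91 ± 0.10 and 6.24 ± 0.14 kb, limma adjusted p = 0.00418).

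Genes in which loss of TDP-43 is known to release cryptic exons rose in 3 of 4 cases. CELF5, an RNA-binding protein gene of the brain, was covered over 24.7, 22.6 and 22.3 kb in shT2 and 10.8, 9.33 and 10.7 kb in shNC3 (log2 difference 1.14, SE 0.072, limma adjusted p = 4.07e-05). UNC13A, which primes synaptic vesicles, was covered over 9.08, 7.79 and 8.84 kb in shT2 and 1.45, 2.01 and 4.10 kb in shNC3 (1.68, limma adjusted p = 0.00268). INSR had 9.58, 11.3 and 5.98 kb and 2.26, 0 and 1.15 kb (2.80, limma adjusted p = 0.00633). HDGFL2, a chromatin reader gene, fell, with 21.9, 20.1 and 21.5 kb in shT2 and 26.1, 28.5 and 28.0 kb in shNC3 (-0.37, limma adjusted p = 0.00111). In all 4 the hairpins did not overlap, and the calls stood without scaling and at equal depth.

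Neuronal and synaptic genes went both ways: of 39 tested, 8 rose, 15 fell and 16 did not pass (median -0.12, and 9 longer and 11 shorter without scaling). SHANK1 rose by 0.80 on the log2 scale (24.5 ± 1.6 and 13.9 ± 1.2 kb, adjusted p = 0.000191). HCN2, a pacemaker channel gene, fell by 0.89 (9.95 ± 0.86 and 18.9 ± 0.10 kb, adjusted p = 8.1e-05). KCNA7, a potassium channel gene, had 1755 bp unscaled in each shNC3 sample and 0 in shT2, all of it beside the gene. APC2, a neuronal relative of the APC tumour suppressor, was chosen after its values were seen: it was covered over 30410 bp unscaled in all 6 samples and was still called shorter on the scaled measure (-0.15, limma adjusted p = 0.0458).

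Splicing and RNA processing genes fell in 15 of 32 cases, rose in 2 and did not pass in 15 (median -0.16, 3 longer and 5 shorter without scaling). The share that fell, 46.9%, was near the 42.8% of all 845 chromosome 19 genes tested outside the ZNF genes. FBL, the rRNA methyltransferase fibrillarin, was covered over 4.63, 4.50 and 3.80 kb in shT2 and 7.63, 9.30 and 8.40 kb in shNC3 (log2 difference -0.90, limma adjusted p = 0.000468). LSM4, a core Sm-like RNA protein gene, fell by 0.47 (adjusted p = 0.00143). CLASRP fell by 0.27 (adjusted p = 0.00143) and lost its call without scaling (-0.12, adjusted p = 0.105). Of 13 ribosomal protein genes, RPL28 fell, 0 rose and 12 did not pass. RPL28 lost its call without scaling (-0.05, adjusted p = 0.477). RPL13A was covered over 8129 bp unscaled in all 3 shT2 samples and over 8345, 8129 and 8129 bp in shNC3, and RPL18 over 6842 bp in all 6.

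Of the loci often used to test DRIP, CALM3, a calmodulin gene, was covered over 5.98, 5.20 and 5.84 kb in shT2 and 9.05, 9.47 and 10.3 kb in shNC3 (log2 difference -0.71, SE 0.082, limma adjusted p = 0.000424). MYADM, the gene of the myeloid-associated differentiation marker, fell by 0.26 (11.3 ± 0.56 and 13.6 ± 0.57 kb, adjusted p = 0.00974). RPL13A did not pass (-0.16, adjusted p = 0.0771).

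Of 17 DNA repair and replication genes tested, 1 rose, 7 fell (41.2%, near the 42.8% of the 845 genes) and 9 did not pass (median -0.24). POLRMT, the mitochondrial RNA polymerase, was covered over 5.73, 5.10 and 5.60 kb in shT2 and 11.5, 12.9 and 13.3 kb in shNC3 (log2 difference -1.13, limma adjusted p = 6.03e-05). Over its whole span RNASEH2A had 3.10, 3.44 and 3.41 kb in shT2 and 7.39, 7.94 and 7.75 kb in shNC3 (-1.10, limma adjusted p = 7.14e-05). RFXANK, on the list but known as a subunit of the RFX complex of MHC class II promoters, fell by 0.55 (adjusted p = 0.00179). ERCC2, a helicase of nucleotide excision repair, fell by 0.27 (adjusted p = 0.00545), and lost its call without scaling (-0.12, adjusted p = 0.198).

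Among 30 chromatin and DNA methylation genes, 5 rose, 13 fell and 12 did not pass (median -0.14, 6 longer and 4 shorter without scaling). The share that fell, 43.3%, was near the 42.8% of the 845 genes. GATAD2A, a NuRD subunit gene, was covered over 30.4, 34.4 and 32.1 kb in shT2 and 19.2, 17.4 and 20.8 kb in shNC3 (log2 difference 0.74, limma adjusted p = 0.000249). ARID3A, a DNA-binding regulator, fell by 1.00 (14.3 ± 2.6 and 28.7 ± 1.5 kb, adjusted p = 0.000633). Oxidative phosphorylation genes mostly did not pass: 1 of 12 rose, 2 fell and 9 did not pass (median -0.15). UQCRFS1, the Rieske protein of complex III, rose (2.82 ± 0.14 and 1.65 ± 0.082 kb, limma adjusted p = 0.008). NDUFA7 and NDUFA13, of complex I, fell by 0.22 and 0.16 (adjusted p = 0.0149 and 0.0495), and neither was called without scaling (adjusted p = 0.146 and 0.939) or without shT2 replicate 2 (adjusted p = 0.0508 and 0.13). NDUFA13 was also lost without shT2 replicate 1 (adjusted p = 0.0974) or 3 (0.0947) and without shNC3 replicate 2 (0.112) or 3 (0.12). ATP5F1D did not pass (-0.17, adjusted p = 0.0884).

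The label holds only for the symbol ZNF: 49 of the 2412 regions (2.03%) lay within 2 kb of a listed C2H2 zinc finger gene of another name. Of these regions, 11 rose (22.4%) and 17 fell (34.7%), beside 10.7% and 23.8% of all 2412. At the ZNF regions the shares were 24.6% and 12.0%. The 49 were not counted by presence under both hairpins. Of 22 such genes tested, 7 rose, 11 fell and 4 did not pass (median -0.22, 7 and 7 without scaling). The median was -0.28 among the 17 peaked under both hairpins. These counts include genes that passed the filter through 1 hairpin alone, among them KLF2 (shNC3) and ZIM2 and PEG3 (shT2). ZFP14 was covered over 5.90, 6.31 and 5.78 kb in shT2 and 2.67, 2.71 and 2.17 kb in shNC3 (log2 difference 1.11, limma adjusted p = 0.000239). PEG3, an imprinted gene expressed from the paternal copy, shares its start with ZIM2, and both lay under the same peaks, with 0.854, 1.72 and 1.44 kb in shT2 and 0 in shNC3. That call was lost at equal depth (adjusted p = 0.0865).

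Genes known from other tissues lay under few peaks. None of 46 cytochrome P450, olfactory receptor and kallikrein genes had a peak in any sample. Of 63 leukocyte receptor and immunoglobulin family genes, 51 had no peak in any sample and 9 could be tested, of which 0 rose and 3 fell. ADGRE5, the broadly expressed adhesion receptor CD97, had 12.6 ± 0.64 kb in shT2 and 24.0 ± 1.3 kb in shNC3 (log2 difference -0.90, limma adjusted p = 5e-05). SIGLEC10 had 0.423, 1.08 and 0 kb in shT2 and 2.44, 2.88 and 1.94 kb in shNC3 (-1.69, limma adjusted p = 0.0121). FCGRT, the neonatal Fc receptor gene, had 3.87 ± 0.27 and 5.89 ± 1.3 kb (-0.53, limma adjusted p = 0.0189), and was not called without scaling (adjusted p = 0.0996) or without shT2 replicate 2 (adjusted p = 0.0674). GP6, a platelet receptor gene, had 2.26 ± 0.22 and 0.794 ± 0.69 kb and did not pass (adjusted p = 0.0538), but was called without shNC3 replicate 2 (0.0459) or 3 (0.0233) and without peaks below 5-fold enrichment (0.0434).

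**Figure D5:**
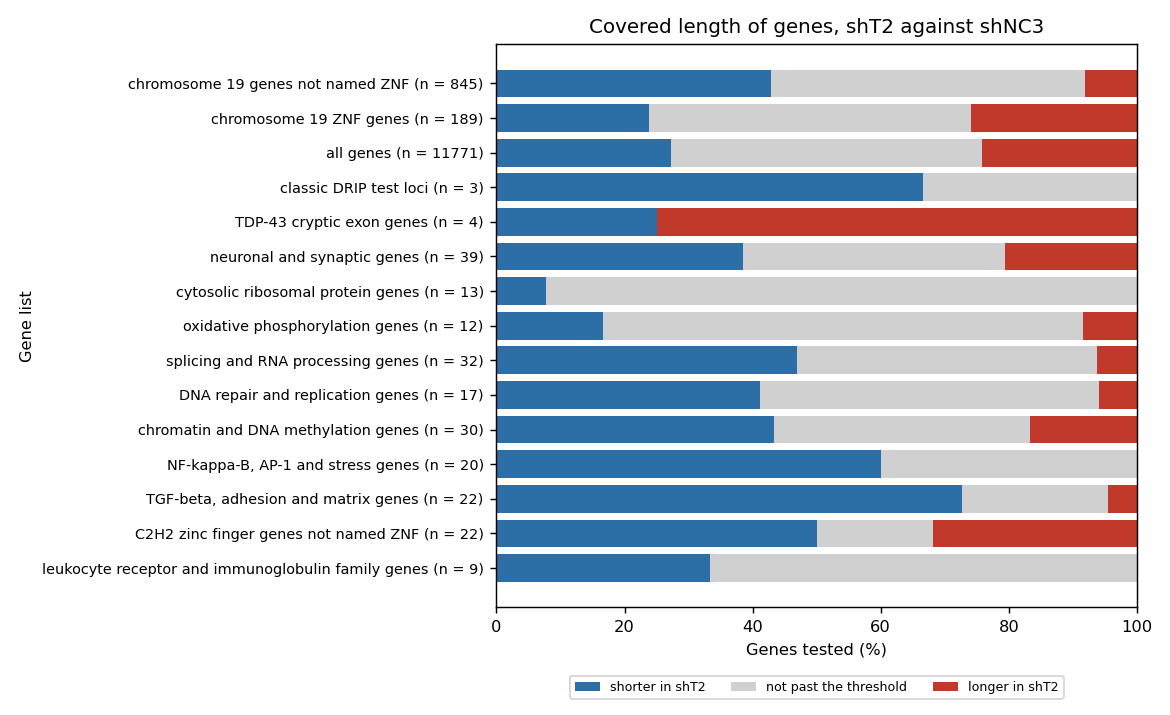
Bars give the share of tested genes (%) in each list with covered length shorter in shT2, not past the threshold or longer in shT2, with the number tested in parentheses. Shorter genes make up 42.8% of chromosome 19 genes not named ZNF and 27.2% of all genes, and reach 16 of 22 in the TGF-beta, adhesion and matrix list.

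Among the regions, 51 overlapped a microRNA gene, of which 1 rose (1.96%) and 23 fell (45.1%), and without scaling 1 rose and 16 fell. They were wide, with a median of 7707 bp. Of all 2412 regions 23.8% fell, of those of 5 to 10 kb 27.1%, and of those over 10 kb 44.6%. The 23 include regions at BCL3, GIPR and GDF15 with no peak in shT2, which are called through the presence rule. They held 61 of the 142 microRNA genes of chromosome 19. The large placenta-expressed cluster of MIR51x, MIR52x and MIR1283 genes had 0 of its 44 under any of these regions. The microRNAs described next were chosen after their values were seen. The cluster of miR-99b, let-7e and miR-125a lies within SPACA6, and its mature 5p strands are printed from RefSeq (GRCh38.p14) because this was a large loss at a known microRNA host, with the seed (bases 2 to 8) in capitals. The 3 seeds differ.
hsa-miR-99b-5p, chr19:51692618-51692639, plus strand: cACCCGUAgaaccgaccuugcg
hsa-let-7e-5p, chr19:51692793-51692814, plus strand: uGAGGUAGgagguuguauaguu
hsa-miR-125a-5p, chr19:51693268-51693291, plus strand: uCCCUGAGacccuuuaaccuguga

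All 3 lie under the region chr19:51687418-51700038, covered over 6.17, 7.16 and 7.69 kb in shT2 and 12.7, 13.3 and 13.2 kb in shNC3. The hairpins did not overlap (log2 difference -0.88, SE 0.083, limma adjusted p = 0.00113), and the call stood without scaling (-0.73, adjusted p = 0.00324). The region over miR-23a, miR-27a and miR-24-2, beside ZSWIM4, fell by 0.23 (adjusted p = 0.0163) and was not called without scaling (-0.07, adjusted p = 0.114). The 1 region that rose held MIR330 at EML2, a microtubule protein gene, with 6.18, 6.08 and 6.31 kb in shT2 and 3.71, 4.15 and 5.41 kb in shNC3 (0.48, limma adjusted p = 0.0394). The 52 regions at long noncoding RNA genes and no protein-coding gene gave 8 longer (15.4%) and 3 shorter (5.77%). Of all 2412 regions, 10.7% were longer and 23.8% shorter, and of all regions tested in the series 21.3% and 16.2%.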

How the data were processed

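Each of the 6 samples has 1 list of narrow peaks, called per sample. Per the submitters' processing notes, Bowtie2 2.4.4, SAMtools, MACS2 2.2.6 and hg38 were used. The sources used here do not name the control of the calling step. The deposited lists give each peak's position, an integer score, its fold enrichment (a linear ratio) and −log10 of its p-value and q-value, as the authors' caller wrote them. Score was not used in any test. Fold and −log10 p served to filter or rank peaks within a list and to recover depth. Coordinates are 1-based hg38. Genes and sequences come from RefSeq tables of GRCh38.p14.

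Covered base pairs were summed per merged region or protein-coding gene (20037), scaled to mean total covered length, and fitted as log2(bp + 200) or log2(bp + 500) in R 4.3.3 by limma 3.58.1 (a trended, robust eBayes after lmFit, without covariates), over all regions or genes present in 3 or more samples, with Benjamini-Hochberg adjustment at 0.05. The pseudocount makes log2 differences understate changes of short coverage. Single values were compared by an exact two-sided permutation test over samples. The fit was tested on simulated data. Equal depth means that every list was thinned to the lowest recovered depth, which drops weak peaks whole and does not shorten the others.

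The named regions are the 8 each way whose log2 difference was largest among regions called, apart and with a peak in both hairpins, the 5 per direction of largest mean covered length present in all samples of 1 hairpin alone, and the 6 of largest mean covered length. The named genes are up to 4 per list with the smallest p. Some regions and genes that these rules name are not reported here. Regions, lists and rules were chosen with earlier results of these data known. Cut sites were searched on both strands in promoter windows alone, since no genome sequence was used here. Alternatives were: no scaling, peaks of at least 5-fold enrichment, equal depth, 42717 peaks per list, other pseudocounts, no presence filter, presence by 200 bp, merging across 1000 bp, a replicate block, and leaving out each sample.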

Additional observations from a re-analysis of the deposited data

How the results depend on the processing

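Counts of called regions outside zinc finger genes, 258 longer and 573 shorter, changed by over 1.5 times under a pair of settings. Shorter regions fell to 374 without scaling, and when peaks below 5-fold enrichment were left out 111 were longer and 209 shorter. Of the genes, 362 were shorter, against 196 without scaling and 203 without the peaks below 5-fold. Under each of the settings run, shorter calls outnumbered longer ones for both regions and genes. The share difference of -1.39 percentage points was -1.12 without peaks below 5-fold and -1.15 at equal depth. The ratio difference of -2.55 was -2.74 and -2.48 there. The cause of these shifts was not tested. Leaving out 1 sample gave 187 to 294 longer and 405 to 510 shorter regions, 55 to 67 longer and 282 to 360 shorter genes, a share difference of -1.50 to -1.27 and a ratio difference of -2.68 to -2.42. The region over MBD3, UQCR11 and TCF3 changed sign without scaling, to 0.01 (adjusted p = 0.625).

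Merging peaks across gaps of up to 1000 bp gave 1285 regions, 192 longer and 425 shorter. A presence rule of 200 bp left every count as it was. Replicate numbers did not pair the samples: deviations of same-numbered samples correlated at -0.0134, -0.0236 and -0.0143 over regions and at -0.0233, -0.0639 and -0.00779 over genes. With a replicate block, 239 regions were longer and 442 shorter, and 69 genes were longer and 298 shorter. Under that block GP6 was called (adjusted p = 0.0215), and NDUFA13 (0.12) and the MBD3 region (0.0864) were not. Of the named regions' values under the settings, 447 kept direction and side of the threshold, 31 lost their call, 1 gained one and 1 changed sign. For named genes the counts were 444, 24, 5 and none. Depth limits weak peaks: the shNC3 libraries were shallower, and a region at 0 there had no peak detected at that depth.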
